A study of Homo sapiens with 52 samples.

Results

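The collagen chain genes were taken as every gene whose symbol is COL, a number, A and a number, which gave 44 genes of the 62696 in the count table of the tumour cell lines, and the same 44 of the 61209 in the count table of THP-1 macrophages. HepG2 and Huh6 are established hepatoblastoma cultures, and THP-1 cells come from a monocytic leukaemia. HepG2 cells were kept for 48 h in 0.2 or 0.3 µM PKF118-310, an inhibitor of Wnt/beta-catenin signalling, in 5 or 10 µM iMDK, an inhibitor of the growth factor midkine, or in empty vehicle. Huh6 cells had the same treatments plus 0.4 µM PKF118-310. THP-1 cells, turned into macrophages with PMA, were sorted after 24 h of direct co-culture with HepG2 or Huh6 cells that had had 24 h of 5 or 10 µM iMDK or no inhibitor, or were grown alone. Each group had 3 libraries except HepG2 at 0.3 µM PKF118-310, which had 1, and there were 52 libraries in all. Each line stands for its tumour or cell type as an established culture, and the THP-1 macrophages were derived from leukaemia cells and not from donor monocytes.

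Collagens are secreted proteins of 3 chains wound into a triple helix, each chain being the product of its own gene. Fibrillar collagens (types I, II, III, V, XI, XXIV and XXVII) form banded fibres, fibril-associated types such as IX, XII, XIV and XVI sit on their surface, and type IV chains form the meshwork of basement membranes. Type VI forms beaded microfilaments, type VII the anchoring fibrils under epithelia, types XIII, XVII and XXIII span the cell membrane, and types XV and XVIII carry heparan or chondroitin sulphate in basement membrane zones. In liver, stellate cells are the main source of fibrillar collagen, and the normal hepatocyte makes little of it. Chains that form one molecule are often read from neighbouring genes: COL4A1 and COL4A2 lie head to head on chromosome 13, COL4A6 and COL4A5 on chromosome X.

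Stretches just upstream of 4 start sites are given here because later results turn on these genes: COL6A2 and COL7A1 are among the chains that rose in HepG2 and fell in Huh6 with iMDK, COL9A2 rose in macrophages after HepG2 co-culture, and COL4A5 has its start 379 bases from that of COL4A6. The sequences are RefSeq windows on GRCh38.p14, 5′ to 3′ on the strand of the gene, cut to the longest stretch within the 250 bases before the start that holds no annotated exon. Capitals mark GGGCGG (the GC box), CCAAT or TATAAA, read on both strands, and no marked match overlaps another. They were read from chr21:46097862-46098096 (plus strand), chr3:48595330-48595579 (minus strand), chr1:40317389-40317536 (minus strand) and chrX:108439588-108439837 (plus strand).
COL6A2: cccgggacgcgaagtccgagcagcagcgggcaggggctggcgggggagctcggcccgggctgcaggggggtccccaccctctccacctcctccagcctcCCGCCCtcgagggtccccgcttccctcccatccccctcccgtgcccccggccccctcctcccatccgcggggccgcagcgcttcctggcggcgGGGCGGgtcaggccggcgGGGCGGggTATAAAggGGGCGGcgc
COL7A1: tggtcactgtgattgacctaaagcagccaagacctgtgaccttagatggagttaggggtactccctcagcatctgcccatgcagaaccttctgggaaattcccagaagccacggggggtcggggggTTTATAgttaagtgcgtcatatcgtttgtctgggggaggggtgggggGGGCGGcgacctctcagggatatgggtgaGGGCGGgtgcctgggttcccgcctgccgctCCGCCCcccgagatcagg
COL9A2: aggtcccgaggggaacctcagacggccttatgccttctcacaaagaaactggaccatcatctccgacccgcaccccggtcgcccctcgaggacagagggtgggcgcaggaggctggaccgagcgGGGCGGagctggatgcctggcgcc
COL4A5: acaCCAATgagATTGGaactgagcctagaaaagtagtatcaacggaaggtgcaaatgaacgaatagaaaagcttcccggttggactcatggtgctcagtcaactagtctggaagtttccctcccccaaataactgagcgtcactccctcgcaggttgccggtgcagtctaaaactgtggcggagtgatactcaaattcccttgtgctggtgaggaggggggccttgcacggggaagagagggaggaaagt
The COL6A2 stretch held 4 GC boxes around 1 TATAAA and ended 16 bases before the start site. The COL7A1 stretch held 3 GC boxes and 1 TATAAA, read on the other strand as TTTATA. The COL9A2 stretch, which ended 103 bases before the start, held 1 GC box, and the COL4A5 stretch held 2 CCAAT motifs. The letters CTTTGA, the core that TCF/LEF factors of the Wnt pathway bind, were in none of these 4 stretches. Of the 32 collagen genes with a full 250-base RefSeq window, 8 held CTTTGA, 21 GGGCGG, 11 CCAAT and 7 TATAAA in at least 1 of their windows. Counted by window, 20.5%, 54.5%, 27.3% and 18.2% of the 44 windows of these genes held them, and of all 34943 windows 11.2%, 42.5%, 32.0% and 10.8%. A match or its absence here describes letters only.

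A chain was called expressed in a line when its mean over all libraries of the line was 0.5 CPM (the counts-per-million unit, scaled by TMM) or more. This held for 19 chains in HepG2, 27 in Huh6 and 26 in THP-1, and 15 chains reached it in all 3 lines. COL5A1 reached it in HepG2 alone. The chains that reached it in Huh6 alone were the 8 COL1A2, COL11A1, COL12A1, COL14A1, COL17A1, COL20A1, COL21A1 and COL28A1, and those in THP-1 alone the 6 COL4A4, COL13A1, COL15A1, COL19A1, COL22A1 and COL23A1. COL4A6 reached it in both tumour lines and not in THP-1, COL5A3 and COL24A1 in HepG2 and THP-1, and COL4A1, COL6A3 and COL26A1 in Huh6 and THP-1. The other 8 (COL3A1, COL4A3, COL6A5, COL6A6, COL8A1, COL9A1, COL10A1 and COL25A1) reached it in no line, and COL10A1, a cartilage chain, was listed at 0 in every library, as was CD68, a gene macrophages express, so no level is read from it. In the control libraries alone, 18, 27 and 23 chains were expressed. In THP-1, COL2A1, COL4A1, COL4A5 and COL16A1 reached the limit through co-culture libraries only, with monoculture means of 0.0601, 0.266, 0.0202 and 0.0407 CPM. COL6A6 reached it over the monoculture libraries (0.532 CPM) but not over all THP-1 libraries (0.415 CPM). The filter on low counts before each test passed 25, 31 and 29 of the 44. COL9A1 was among the chains below the limit although COL9A2 and COL9A3, its partners in type IX collagen of cartilage, were not.

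Libraries held 18284605 to 20043105 counts in HepG2, 18172462 to 19912509 in Huh6 and 12623973 to 16940245 in THP-1, so 3 counts, the least taken as detected in a library, stood for 0.150 to 0.164, 0.151 to 0.165 and 0.177 to 0.238 CPM. Of the 20 tumour markers, 18 had a mean of 0.5 CPM or more over all libraries of each tumour line. Of 9 macrophage markers, 8 did over all THP-1 libraries. VTN, CD68, ACTA2 and THY1 were listed at 0 in every library of these tables. Of the 9 fibroblast and stellate markers 4 reached that mean over all Huh6 libraries and 2 over all HepG2 libraries, mostly as PDGFRB, the PDGF receptor of such cells. Of 5 endothelial markers 2 reached it over all libraries of each tumour line and 3 over all THP-1 libraries. In bulk libraries such as these, fewer cells of a type and less RNA per cell cannot be told apart.

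In Huh6, collagen RNA was dominated by COL2A1, the chain of the type II collagen of cartilage. Per kilobase of exon, the mean level in vehicle libraries was 1273 CPM for COL2A1, 99.5 for COL18A1, the precursor of endostatin, 57.3 for COL26A1, 46.4 for COL4A1, 31.3 for COL4A2, 27.4 for COL6A1 and 24.6 for COL1A2. COL2A1 alone took 0.851 to 0.862% of all counts in the vehicle libraries, and the 44 genes together 1.21% ± 0.0112 (SD, n = 3). Over all 18 Huh6 libraries and not divided by length, other fibrillar chains averaged 224 CPM for COL1A2, 197 for COL27A1, 44.1 for COL1A1, 18.9 for COL5A2, 1.89 for COL11A2 and 0.844 for COL11A1. The basement membrane chains averaged 687 CPM for COL4A1, 651 for COL4A2, 17.6 for COL4A5 and 3.15 for COL4A6. COL18A1 averaged 777 CPM, COL26A1 140, and the microfibrillar chains 165 for COL6A3, 131 for COL6A1 and 30.1 for COL6A2. Of the fibril-associated chains COL12A1 averaged 98.3 CPM, COL9A3 41.8, COL14A1 9.78, COL16A1 7.59, COL9A2 5.04, COL21A1 2.83 and COL20A1 0.859. COL7A1 averaged 33.8 CPM, COL17A1 4.84, COL28A1 1.74 and COL8A2 0.542.

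HepG2 had a lower collagen total with other leading chains. The 44 genes took 0.181% ± 0.010 (SD, n = 3) of counts in its vehicle libraries. Per kilobase the vehicle means were 86.7 CPM for COL9A3, 50.7 for COL18A1, 41.6 for COL27A1, 22.9 for COL9A2 and 10.9 for COL4A5. Over all 13 libraries and not divided by length, the fibrillar chains averaged 364 CPM for COL27A1, 2.48 for COL2A1, 2.42 for COL1A1, 2.20 for COL5A1, 1.92 for COL5A2, 1.45 for COL11A2, 0.815 for COL5A3 and 0.667 for COL24A1. COL9A3 averaged 314 CPM, COL9A2 79.4 and COL16A1 35.9, while COL18A1 averaged 295. The basement membrane chains averaged 89.7 CPM for COL4A5, 48.1 for COL4A6 and 1.04 for COL4A2. COL7A1 averaged 62.6 CPM, COL6A1 43.2, COL6A2 8.78 and COL8A2 1.12.

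THP-1 macrophages led with type VI chains. In monoculture the means per kilobase were 149 CPM for COL6A1, 114 for COL6A2, 82.5 for COL9A2, 16.8 for COL23A1 and 8.59 for COL11A2. Over all 21 libraries and not divided by length, COL6A1 averaged 797 CPM, COL6A2 657, COL9A2 421, COL6A3 154, COL7A1 72.4, COL23A1 59.1, COL11A2 55.9, COL27A1 48.1, COL1A1 45.1 and COL18A1 25.3. COL9A3 averaged 10.3 CPM, COL8A2 6.87 and COL24A1 3.47, and the other 13 expressed chains averaged between 0.517 CPM (COL19A1) and 2.77 CPM (COL4A2). These means include co-culture libraries; in monoculture COL9A3 averaged 2.98 CPM and COL4A2 1.28 CPM. The plot of control levels shows how the same chain differed between the lines by orders of magnitude.

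**Figure D1:**
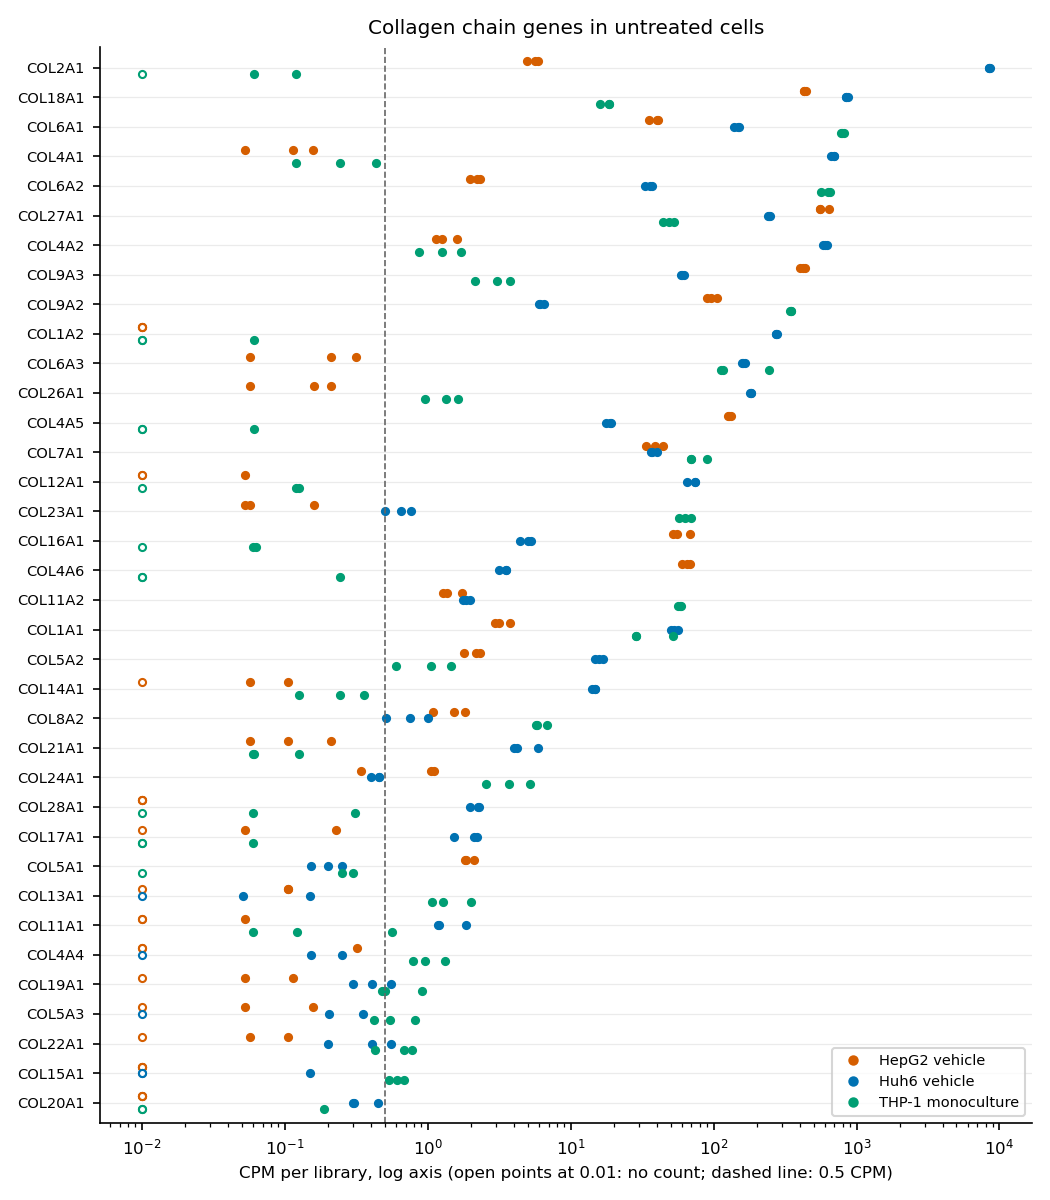
CPM of the 36 collagen chain genes expressed in a line, on a log axis, with 1 point per control library of HepG2 (vehicle), Huh6 (vehicle) and THP-1 (monoculture). Open points at 0.01 stand for 0 counts and the dashed line marks 0.5 CPM; COL2A1, COL4A1 and COL4A2 lie far to the right in Huh6, COL9A2 and COL16A1 in HepG2 against Huh6, and COL6A1 and COL6A2 in THP-1.

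The HepG2 vehicle libraries were compared with the Huh6 vehicle libraries in a joint fit of the 31 tumour libraries. Of 35 chains tested with edgeR's quasi-likelihood test and Benjamini-Hochberg adjustment over all genes, 8 were higher and 21 lower in HepG2, where 75.8% of all 17572 genes tested were called, 36.4% higher and 39.4% lower. Among the 21, COL1A2, COL11A1, COL12A1, COL14A1, COL19A1, COL20A1 and COL28A1 had 0 to 3 counts over the HepG2 vehicle libraries. They passed the filter on low counts only through Huh6 libraries, so they could only be called lower and add no weight to the 21. COL2A1 was at 4.98, 5.86 and 5.63 CPM in HepG2 vehicle libraries, against 8530, 8514 and 8404 CPM in Huh6, a log2 difference of -10.62 ± 0.08 (SE). COL1A2, the second chain of type I collagen, had 0 counts in the 3 HepG2 libraries and 16297 in the 3 Huh6 libraries, so it was at least 5079-fold lower in HepG2, taking 3 counts over the group as the floor. COL1A1, the other chain, was present in both lines at a log2 difference of -4.03 ± 0.13. COL12A1 had 1 count in the HepG2 libraries against 4211 in Huh6, a ratio of Huh6 to HepG2 of 3937 (95% counting interval 706 to 155531, exact binomial). COL28A1 had 0 against 129 counts and was at least 40.2-fold lower in HepG2. The other chains with the largest differences were lower in HepG2 too: COL4A1 by -12.57 ± 0.60 and COL26A1 by -10.26 ± 0.51, both with at most 4 counts in a HepG2 vehicle library, COL6A3 by -9.66 ± 0.62 and COL4A2 by -8.84 ± 0.17 on the log2 scale.

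The type IV chains differed in opposite directions between the lines. COL4A5 and COL4A6, the chains of smooth muscle and some epithelial basement membranes, were higher in HepG2 by 2.77 ± 0.06 and 4.23 ± 0.13 (log2, SE), while COL4A1 and COL4A2, the widely expressed chains, were lower. COL4A6 was at 68.4, 65.5 and 60.6 CPM in HepG2 vehicle libraries and at 3.5, 3.52 and 3.17 CPM in Huh6. COL9A2 (3.93 ± 0.09), COL16A1 (3.55 ± 0.11), COL5A1 (3.19 ± 0.50), COL9A3 (2.77 ± 0.04) and COL27A1 (1.24 ± 0.04) were higher in HepG2 too, and COL8A2 by less (0.95 ± 0.36, adjusted p = 0.015, edgeR). COL18A1 was lower in HepG2 by -1.0 ± 0.03. COL7A1 differed by 0.01 ± 0.07, less than its error (adjusted p = 0.89, edgeR). The other chains named in this comparison had adjusted p of 4.4e-10 or less in edgeR's quasi-likelihood test. These lines are 1 culture each, so the libraries measure the spread within a line.

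The 44 genes took 1.21% of counts in Huh6 libraries with vehicle, 1.11% ± 0.000983 at 0.2 µM PKF118-310, 0.977% ± 0.0323 at 0.3 µM and 0.770% ± 0.0143 at 0.4 µM (SD, n = 3 each). At 0.4 µM, 9 of 31 chains tested rose and 14 fell against vehicle (edgeR, adjusted over all genes), where 56.8% of all genes tested were called, 28.9% higher and 27.9% lower. The median log2 fold change of the 31 was -0.25, against -0.01 over all genes. By class, 2 of 8 fibrillar chains rose and 5 fell, 3 of 9 fibril-associated chains rose and 3 fell, and 2 of 4 type IV chains rose and 1 fell. At 0.2 µM, 0 chains rose and 3 fell with 2.24% of genes called, 1.04% higher and 1.2% lower. At 0.3 µM, 6 rose and 10 fell with 28.5% called, 15% higher and 13.5% lower.

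COL2A1 had 8530, 8514 and 8404 CPM with vehicle, 7715, 7712 and 7748 CPM at 0.2 µM, 6713, 6256 and 6554 CPM at 0.3 µM and 4589, 4697 and 4746 CPM at 0.4 µM PKF118-310. The dose groups did not overlap, and each lay below the one before it. The log2 change from vehicle was -0.14 ± 0.02, -0.38 ± 0.02 and -0.86 ± 0.02 (SE) at the 3 doses, with edgeR adjusted p of 3.8e-05, 1e-18 and 4.1e-32. COL9A3, which joins type II fibres in cartilage as part of type IX, had 35.4, 34.1 and 32.9 CPM at 0.4 µM and 62.3, 59.6 and 60.2 CPM with vehicle (-0.83 ± 0.05). COL14A1, a fibril-associated chain, had 14.7, 14.8 and 14.2 CPM with vehicle, 13.3, 13.9 and 11.2 CPM at 0.2 µM, 9.57, 8.36 and 8.90 CPM at 0.3 µM and 4.26, 3.46 and 4.12 CPM at 0.4 µM. It fell by 1.88 ± 0.12 on the log2 scale at 0.4 µM (edgeR adjusted p = 3e-18), the largest fall among the chains that passed the test. COL21A1 fell by 1.68 ± 0.22 and COL11A1, a minor partner of type II fibres, by 1.73 ± 0.42, both from under 6 CPM with vehicle. At the lowest dose the chains that fell were COL2A1, COL26A1 (-0.13 ± 0.03, edgeR adjusted p = 0.0079) and COL6A3 (-0.21 ± 0.06, adjusted p = 0.039). The fall of COL26A1 was lost without replicate 1 at 0.2 µM (adjusted p = 0.055, edgeR). That of COL6A3 did not pass with DESeq2 (adjusted p = 0.28), nor without any one of the vehicle libraries or replicate 1 or 3 at 0.2 µM (-0.23 to -0.18, adjusted p of 0.071 to 0.26, edgeR), and its change was 0.27 ± 0.06 at 0.4 µM.

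COL17A1, the transmembrane chain of hemidesmosomes, rose at 0.3 and 0.4 µM PKF118-310. It had 2.20, 1.53 and 2.12 CPM with vehicle, 3.37, 2.56 and 3.11 CPM at 0.2 µM, 3.99, 5.66 and 4.63 CPM at 0.3 µM and 12.6, 12.9 and 11.8 CPM at 0.4 µM. The groups did not overlap, and the change at 0.4 µM was 2.67 ± 0.17 (log2, edgeR adjusted p = 5.4e-19). COL16A1, which links fibres to other matrix, had 11.9, 12.6 and 12.4 CPM at 0.4 µM and 5.05, 4.44 and 5.29 CPM with vehicle, a change of 1.32 ± 0.12. COL20A1, a little-studied fibril-associated chain, had 2.42, 2.34 and 3.06 CPM at 0.4 µM and 0.450, 0.306 and 0.302 CPM with vehicle, a change of 2.86 ± 0.41. It passed the filter on low counts only through treated libraries, which limits this call and its later ones in Huh6. COL12A1 rose by 0.73 ± 0.07, with 101, 137 and 113 CPM at 0.4 µM against 73.7, 73.7 and 65.2 CPM with vehicle. The type IV pair rose by less: COL4A2 by 0.27 ± 0.03 and COL4A1 by 0.12 ± 0.03.

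Of the type I chains, COL1A1 fell by 0.25 ± 0.06 and COL1A2 by 0.24 ± 0.03 at 0.4 µM, and neither passed the test at the lower doses. Among type VI chains, COL6A1 fell by 0.40 ± 0.04 and COL6A2 by 0.51 ± 0.06. COL18A1 fell by 0.17 ± 0.02 and COL4A5 by 0.22 ± 0.08. Set directly against each other, the 0.4 µM and 0.2 µM groups differed in 9 chains that were higher and 13 that were lower at 0.4 µM, with 54.6% of all genes called (28.1% higher, 26.5% lower). COL20A1 (3.0 ± 0.42), COL17A1 (2.04 ± 0.15), COL16A1 (1.10 ± 0.12) and COL12A1 (0.81 ± 0.07) were higher at 0.4 µM, and COL14A1 (-1.70 ± 0.12), COL11A1 (-1.30 ± 0.44), COL21A1 (-1.11 ± 0.23) and COL9A3 (-0.82 ± 0.05) lower, the call of COL11A1 being lost without replicate 2 at 0.4 µM (-1.05). The 9 summed fibroblast and stellate markers were at 42.4 to 46.7 CPM in the 0.4 µM libraries against 77.8 to 79.8 CPM with vehicle, almost all of it PDGFRB. The 20 tumour markers were at 7471 to 8558 CPM at 0.4 µM against 13320 to 13407 CPM with vehicle, and the 9 macrophage markers at 49.9 to 54.6 CPM against 15.36 to 18.03 CPM. The part of these shifts in the collagen values was not tested.

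**Figure D2:**
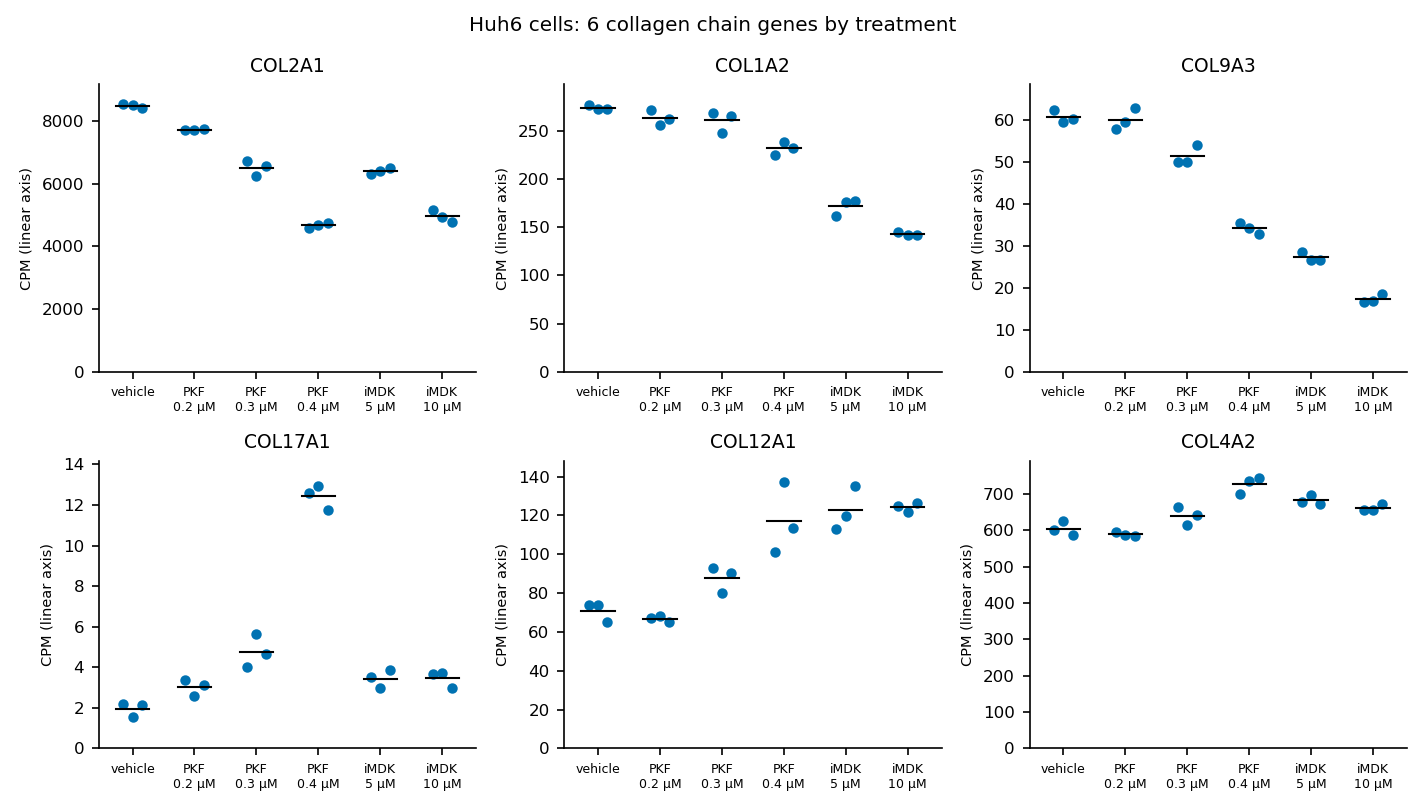
CPM of 6 chains in each Huh6 library (points) with the group mean (line), on linear axes from 0, for vehicle, PKF118-310 (PKF) at 0.2, 0.3 and 0.4 µM and iMDK at 5 and 10 µM. COL2A1 steps down with each dose of either compound, COL1A2 and COL9A3 drop further with iMDK, and COL17A1 reaches 11.8 to 12.9 CPM at 0.4 µM PKF118-310 only.

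With iMDK more chains fell than rose in Huh6. At 10 µM, 5 of 31 chains rose and 21 fell against vehicle, where 52.1% of all genes tested were called, 26% higher and 26.1% lower, and the median log2 change of the 31 was -0.35. Of the 8 fibrillar chains tested 1 rose and 5 fell, and the 3 type VI chains tested fell. At 5 µM, 6 rose and 12 fell with 35.6% of genes called, 17.3% higher and 18.3% lower. These comparisons share the vehicle libraries with those of PKF118-310.

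COL9A3 had 28.4, 26.7 and 26.7 CPM at 5 µM and 16.7, 16.8 and 18.5 CPM at 10 µM iMDK, against 62.3, 59.6 and 60.2 CPM with vehicle. Its change at 10 µM was -1.81 ± 0.06 (log2, SE; edgeR adjusted p = 2.9e-28), the largest fall among the chains that passed. COL1A2 had 161, 176 and 177 CPM at 5 µM and 145, 142 and 142 CPM at 10 µM, against 277, 272 and 273 CPM with vehicle (-0.94 ± 0.03 at 10 µM, edgeR adjusted p = 2.1e-26). COL1A1 had 38.7, 46.3 and 40.7 CPM at 5 µM and 24.2, 28.2 and 27.8 CPM at 10 µM, against 56.1, 50.3 and 52.6 CPM with vehicle (-0.99 ± 0.06). Both type I chains thus fell at each dose with no overlap between the groups. COL2A1 had 6307, 6392 and 6486 CPM at 5 µM and 5146, 4945 and 4779 CPM at 10 µM, a change of -0.78 ± 0.02 at the higher dose. COL14A1 (-0.92 ± 0.10), COL21A1 (-1.21 ± 0.20), COL28A1 (-1.23 ± 0.27) and COL11A1 (-1.71 ± 0.42) fell as well. COL8A2, a network chain near the detection limit, had 0.351, 0.297 and 0.380 CPM at 10 µM and 0.750, 0.510 and 1.01 CPM with vehicle (-1.13 ± 0.48, edgeR adjusted p = 0.037), a call lost with DESeq2 (adjusted p = 0.060) and without replicate 1 or 3 with vehicle or any one of the 10 µM libraries (-1.21 to -0.87).

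The chains that rose at 10 µM iMDK were COL17A1 (0.83 ± 0.19), COL12A1 (0.81 ± 0.07), COL5A2 (0.42 ± 0.08), COL16A1 (0.39 ± 0.13) and COL4A2 (0.13 ± 0.03). COL12A1, a fibril-associated chain of tissues under tension, had 113, 120 and 135 CPM at 5 µM and 125, 122 and 126 CPM at 10 µM, against 73.7, 73.7 and 65.2 CPM with vehicle. At 5 µM the larger rises were COL17A1 (0.81 ± 0.19), COL12A1 (0.79 ± 0.07), COL16A1 (0.73 ± 0.12) and COL5A2 (0.57 ± 0.08), and the larger falls COL9A3 (-1.15 ± 0.05), COL1A2 (-0.68 ± 0.03), COL9A2 (-0.64 ± 0.15) and COL21A1 (-0.58 ± 0.19, not past the test without replicate 1 with vehicle or at 5 µM). Between the doses, 0 chains were higher and 17 lower at 10 than at 5 µM, with 24.9% of all genes called, 12.7% higher and 12.2% lower; without adjustment 0 were higher and 19 lower at p under 0.05. The widest steps were COL11A1 (-1.23 ± 0.43), COL28A1 (-0.95 ± 0.27), COL9A3 (-0.66 ± 0.06), COL1A1 (-0.65 ± 0.06), COL21A1 (-0.62 ± 0.21), COL14A1 (-0.48 ± 0.11), COL6A3 (-0.47 ± 0.06) and COL27A1 (-0.38 ± 0.03). The step of COL11A1 was lost without replicate 1 or 3 of either dose (-1.18 to -1.08) and that of COL21A1 without any one of the 10 µM libraries or replicate 3 at 5 µM (-0.63 to -0.49). Of the chains that passed at 10 µM, COL4A1 (-0.08 ± 0.03) and COL4A2 changed least, and COL18A1 fell by 0.31 ± 0.02. The summed fibroblast and stellate markers were 32.2 to 33.4 CPM at 10 µM against 77.8 to 79.8 CPM with vehicle, PDGFRB alone being at 29.2, 27.5 and 27.1 CPM against 75.2, 76.7 and 76.8 CPM. The tumour markers were at 8661 to 8972 CPM and the macrophage markers at 66.4 to 71.0 CPM at 10 µM, against 13320 to 13407 CPM and 15.36 to 18.03 CPM with vehicle, and the part of these shifts was not tested.

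The highest doses of the 2 compounds were also set against each other in Huh6. In 0.4 µM PKF118-310, 14 chains were higher and 4 lower than in 10 µM iMDK, with 41.3% of all genes called (21.7% higher, 19.6% lower). COL20A1 (2.15 ± 0.36), COL17A1 (1.84 ± 0.15), COL9A3 (0.98 ± 0.06), COL16A1 (0.93 ± 0.11), COL28A1 (0.87 ± 0.28), COL1A1 (0.74 ± 0.06) and COL4A6 (0.73 ± 0.20) were higher with PKF118-310 (log2, SE). COL14A1 was lower with it (-0.96 ± 0.13). COL1A2 was at 225, 239 and 232 CPM in 0.4 µM PKF118-310 and at 145, 142 and 142 CPM in 10 µM iMDK. The 2 doses are not matched in potency, and the values describe these concentrations.

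In HepG2 with PKF118-310 the leading chains fell while COL6A2 and COL7A1 rose. The collagen share of counts was 0.10% at 0.2 µM and 0.0775% in the library at 0.3 µM, with 0.181% in vehicle libraries. At 0.2 µM, 4 of 25 chains rose and 10 fell (edgeR's quasi-likelihood test), where 67.7% of all genes tested were called, 34.3% higher and 33.4% lower, and the median log2 change of the 25 was -0.19. Of the fibrillar chains 0 of 8 rose and 4 fell, and of the fibril-associated chains 0 of 4 rose and 3 fell. The 20 summed tumour markers were at 8963 to 9939 CPM in the 0.2 µM libraries against 38956 to 42685 CPM with vehicle, and the 9 fibroblast and stellate markers at 4.10 to 5.13 CPM against 15.1 to 17.9 CPM. The 9 macrophage markers summed to 222 to 259 CPM at 0.2 µM against 1149 to 1300 CPM with vehicle, almost all of it LYZ (lysozyme), while PTPRC and TYROBP did not exceed 1 count in any HepG2 library. The part of these shifts in the collagen values was not tested.

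COL6A2, the alpha-2 chain of type VI collagen, had 18.5, 17.1 and 18.3 CPM at 0.2 µM and 8.12 CPM in the library at 0.3 µM, against 1.96, 2.30 and 2.22 CPM with vehicle. The groups lay far apart, with a change of 3.05 ± 0.15 at 0.2 µM (log2, SE; edgeR adjusted p = 5.7e-23). COL6A1, its partner, had 47.9, 47.0 and 48.8 CPM at 0.2 µM and 39.8, 41.1 and 35.1 CPM with vehicle (0.31 ± 0.06). COL7A1, the chain of anchoring fibrils, had 82.1, 88.0 and 95.8 CPM at 0.2 µM and 33.6, 44.2 and 38.7 CPM with vehicle (1.19 ± 0.07, edgeR adjusted p = 4.3e-19). COL26A1 was the other chain that rose (1.49 ± 0.70, edgeR adjusted p = 0.042), at 5, 12 and 8 counts against 3, 4 and 1. It passed the filter on low counts only through treated libraries, so its call is given without weight.

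The chains that fell at 0.2 µM included those most abundant in the line. COL27A1, a fibrillar chain of cartilage, had 191, 216 and 211 CPM at 0.2 µM against 552, 640 and 553 CPM with vehicle (-1.50 ± 0.04). COL18A1 had 197, 195 and 194 CPM against 430, 440 and 426 CPM (-1.15 ± 0.03), and COL9A3 234, 233 and 234 CPM against 420, 435 and 404 CPM (-0.84 ± 0.04). COL16A1 had 18.1, 18.7 and 19.7 CPM against 51.7, 68.4 and 55.7 CPM (-1.64 ± 0.08). In none of these chains did the groups overlap. COL2A1, at a low level in this line, had 8, 1 and 3 counts at 0.2 µM and 94, 112 and 99 counts with vehicle (-4.74 ± 0.48, edgeR adjusted p = 6.1e-16). COL24A1, a fibrillar chain, fell by 1.40 ± 0.50, with 8, 8 and 3 counts at 0.2 µM and 21, 20 and 6 counts with vehicle, a call lost without replicate 1 with vehicle (-1.14) or replicate 3 at 0.2 µM (-1.05).

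The head-to-head pair COL4A5 and COL4A6 fell by similar amounts in HepG2. COL4A5 had 62.4, 61.5 and 62.8 CPM at 0.2 µM PKF118-310 and 133, 127 and 127 CPM with vehicle, a change of -1.05 ± 0.04 (log2, SE). COL4A6 had 35.6, 33.4 and 34.5 CPM at 0.2 µM and 68.4, 65.5 and 60.6 CPM with vehicle, a change of -0.91 ± 0.06. With 10 µM iMDK the changes were -0.62 ± 0.04 for COL4A5 and -0.54 ± 0.06 for COL4A6. The 2 genes are read in opposite directions from starts 379 bases apart, so the stretch printed for COL4A5 lies between them. All 4 falls passed edgeR's test, with adjusted p of 1.1e-10 or less.

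At 0.3 µM HepG2 had 1 library, so its differences have no test. Relative to the vehicle libraries, 6 of the 25 chains were at least 2-fold higher and 8 at least 2-fold lower, where 26.8% of all genes tested were past 2-fold, 12.5% higher and 14.4% lower. COL6A2 differed by 1.91 on the log2 scale, COL27A1 by -1.86, COL16A1 by -1.71, COL9A3 by -1.36, COL4A5 by -1.27, COL9A2 by -1.22 and COL18A1 by -1.20. COL7A1 had 56.4 CPM, between the vehicle libraries and those at 0.2 µM. COL9A2, at 41.5 CPM, lay below both.

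COL6A2 and COL7A1 rose in HepG2 with iMDK, while COL27A1 and COL18A1 fell; these comparisons share the vehicle libraries with those of PKF118-310. At 10 µM, 8 of 25 chains rose and 9 fell, where 54.6% of all genes tested were called, 27.3% higher and 27.2% lower, with a median of -0.17. At 5 µM, 6 rose and 8 fell with 47.3% called, 23.2% higher and 24.1% lower. The chains that rose at 10 µM include COL4A1, COL5A3, COL13A1, COL23A1 and COL26A1. Their vehicle means were 0.108, 0.0700, 0.0702, 0.0894 and 0.142 CPM, and they passed the filter on low counts only through treated libraries. This holds at 5 µM for COL5A3, COL13A1 and COL26A1, so these calls are given without weight. COL6A2 had 7.51, 6.55 and 6.07 CPM at 5 µM and 8.20, 9.54 and 7.78 CPM at 10 µM, against 1.96, 2.30 and 2.22 CPM with vehicle. Its change was 1.63 ± 0.16 at 5 µM and 1.97 ± 0.16 at 10 µM (edgeR adjusted p = 5e-12 and 4.7e-15). COL7A1 had 65.1, 64.1 and 57.2 CPM at 5 µM and 67.6, 62.2 and 59.3 CPM at 10 µM, a change of 0.68 ± 0.07 and 0.70 ± 0.07. COL5A3, a minor fibrillar chain, had 1.89, 1.40 and 2.02 CPM at 5 µM and 1.14, 1.49 and 1.55 CPM at 10 µM, against 1, 3 and 0 counts with vehicle. It passed the filter on low counts only through treated libraries, so its 2 calls are given as counts without weight. Its exons overlap 270 bases of an antisense gene, and the strand setting of the counting is not given in the sources used here.

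COL27A1 had 419, 428 and 393 CPM at 5 µM and 330, 326 and 319 CPM at 10 µM iMDK, against 552, 640 and 553 CPM with vehicle, so it stepped down with dose (-0.49 ± 0.04 and -0.84 ± 0.04). COL18A1 had 310, 313 and 310 CPM at 5 µM and 269, 282 and 275 CPM at 10 µM (-0.48 ± 0.03 and -0.65 ± 0.03). COL18A1 shares 1401 exon bases with SLC19A1 on the other strand, so reads of these genes cannot be told apart if strand was not used. COL16A1 fell by 0.52 ± 0.07 and 0.91 ± 0.07, COL2A1 by 1.17 ± 0.21 and 1.13 ± 0.21, and COL1A1 by 0.61 ± 0.21 and 0.93 ± 0.22, the fall of COL1A1 at 5 µM being lost without replicate 2 with vehicle (-0.50) or replicate 1 at 5 µM (-0.55). Between the doses, COL6A2 was the 1 chain that was higher at 10 than at 5 µM (0.34 ± 0.11, edgeR adjusted p = 0.040, 0.075 with DESeq2), and 7 were lower, with 13.4% of all genes called (6.5% higher, 6.94% lower). Those 7 were COL16A1 (-0.39 ± 0.08), COL27A1 (-0.35 ± 0.04), COL9A2 (-0.26 ± 0.05), COL9A3 (-0.26 ± 0.03), COL4A6 (-0.23 ± 0.06), COL4A5 (-0.19 ± 0.04) and COL18A1 (-0.17 ± 0.03). The call of COL6A2 was lost without replicate 1 or 2 at 10 µM or replicate 2 or 3 at 5 µM (0.25 to 0.37), and that of COL4A6 without replicate 3 at 5 µM (-0.16).

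Set against 10 µM iMDK, HepG2 cells in 0.2 µM PKF118-310 had 3 chains higher and 11 lower, with 58.8% of all genes called (29.6% higher, 29.2% lower). COL6A2 (1.08 ± 0.10) and COL1A1 (0.74 ± 0.22) were higher with PKF118-310, COL1A1 not without replicate 3 at 0.2 µM PKF118-310 (0.53, adjusted p = 0.060, edgeR). COL2A1 (-3.61 ± 0.49), COL5A2 (-1.18 ± 0.26), COL16A1 (-0.73 ± 0.09), COL27A1 (-0.66 ± 0.04) and COL18A1 (-0.49 ± 0.03) were lower with it. COL5A3, called lower too, had 1, 3 and 3 counts in 0.2 µM PKF118-310, and with vehicle it had 1, 3 and 0.

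Responses to the same dose were compared between the lines, and with 0.2 µM PKF118-310 the chains differed about as often as genes in general. The response to 0.2 µM PKF118-310 differed between HepG2 and Huh6 in 16 of 35 chains, 6 with a higher and 10 with a lower response in HepG2, where 49.9% of all genes tested differed, 24.8% higher and 25.1% lower (edgeR interaction test). For 10 µM iMDK 17 differed, 11 higher and 6 lower, with 36.9% of genes differing (17.8% higher, 19.1% lower), and for 5 µM iMDK 15 differed, 10 higher and 5 lower, with 29.1% (13.2% higher, 15.9% lower). The difference in the response was 3.14 ± 0.16 for COL6A2, -1.87 ± 0.16 for COL16A1 and -4.61 ± 0.42 for COL2A1 with PKF118-310 (log2, HepG2 minus Huh6). These counts include chains too low to be tested within HepG2: COL20A1 at each dose, COL14A1 and COL28A1 at 5 µM iMDK and COL21A1 at 10 µM with a higher response there, and COL6A6, tested in neither line alone, with a lower one at 0.2 µM PKF118-310 and 10 µM iMDK. The fitted differences of COL20A1 rest on HepG2 vehicle libraries with 0 counts and are no measure of size.

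With 10 µM iMDK, 7 chains were called in opposite directions in the lines and also differed by the interaction test, and 8 were called in the same direction in both. COL6A2 rose in HepG2 and fell in Huh6, where it had 26.6, 29.2 and 27.2 CPM at 10 µM against 36.8, 35.8 and 32.9 CPM with vehicle (-0.35 ± 0.06). The difference was 2.34 ± 0.16 (edgeR adjusted p = 7.8e-20). COL7A1, with 26.1, 31.8 and 31 CPM at 10 µM against 37.3, 36.2 and 40.0 CPM with vehicle in Huh6, also fell there (-0.35 ± 0.07) and rose in HepG2, a difference of 1.08 ± 0.10. COL6A1 differed by 0.42 ± 0.07, with a rise in HepG2 and a fall in Huh6. COL16A1 showed the reverse: it fell in HepG2 and rose in Huh6, where it had 6.98, 6.69 and 5.71 CPM at 10 µM and 5.05, 4.44 and 5.29 CPM with vehicle, a difference of -1.28 ± 0.16. The remaining 3, COL4A1, COL23A1 and COL26A1, had at most 16 counts in any HepG2 library of these groups. They passed the filter in HepG2 only through treated libraries, so they add no weight to the 7. The 8 called in the same direction all fell: COL1A1, COL2A1, COL4A5, COL4A6, COL9A2, COL9A3, COL18A1 and COL27A1.

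**Figure D3:**
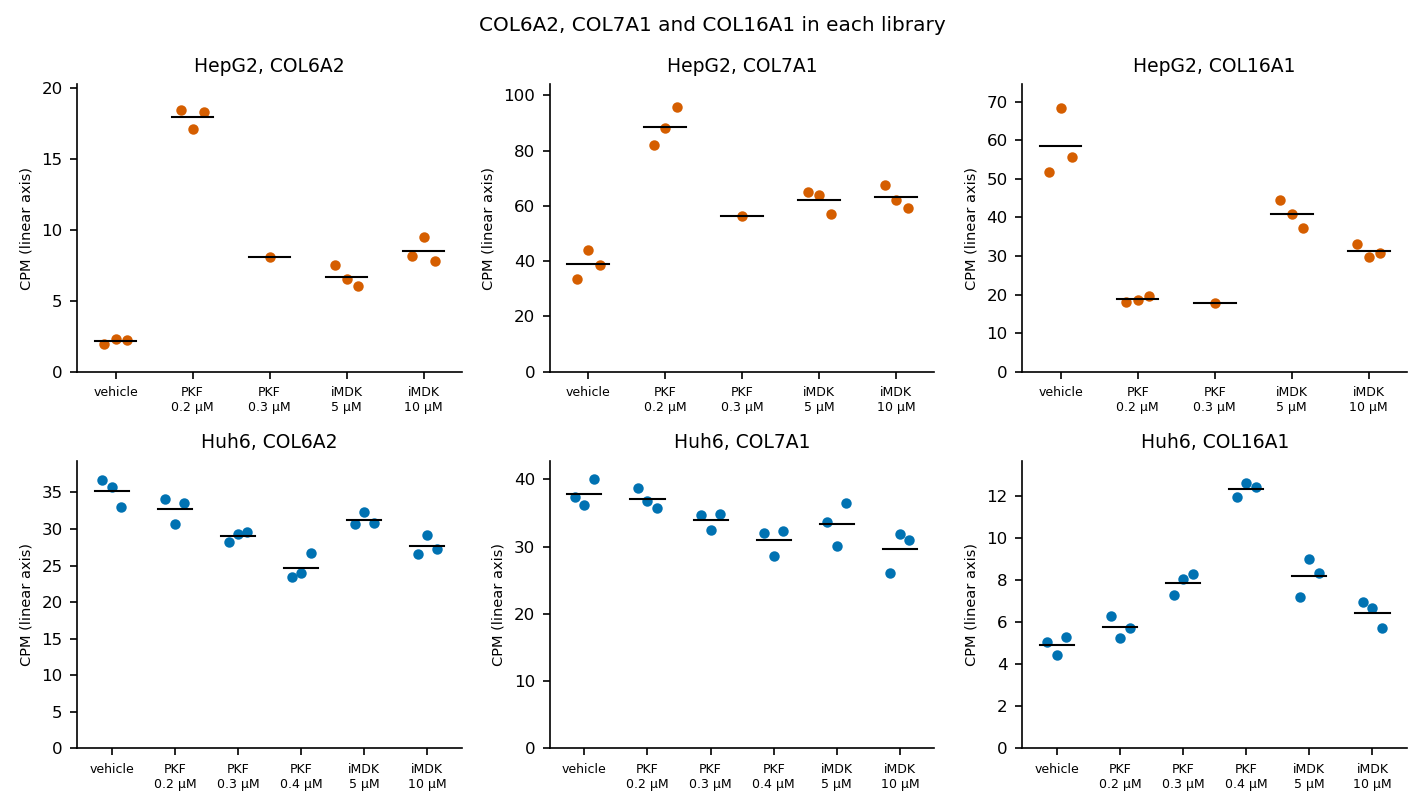
CPM of COL6A2, COL7A1 and COL16A1 in each HepG2 library (top row) and each Huh6 library (bottom row), with the group mean as a line, on linear axes from 0. COL6A2 and COL7A1 stand higher in all treated HepG2 libraries than with vehicle and lower at the highest doses in Huh6, and COL16A1 goes the other way.

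**Figure D4:**
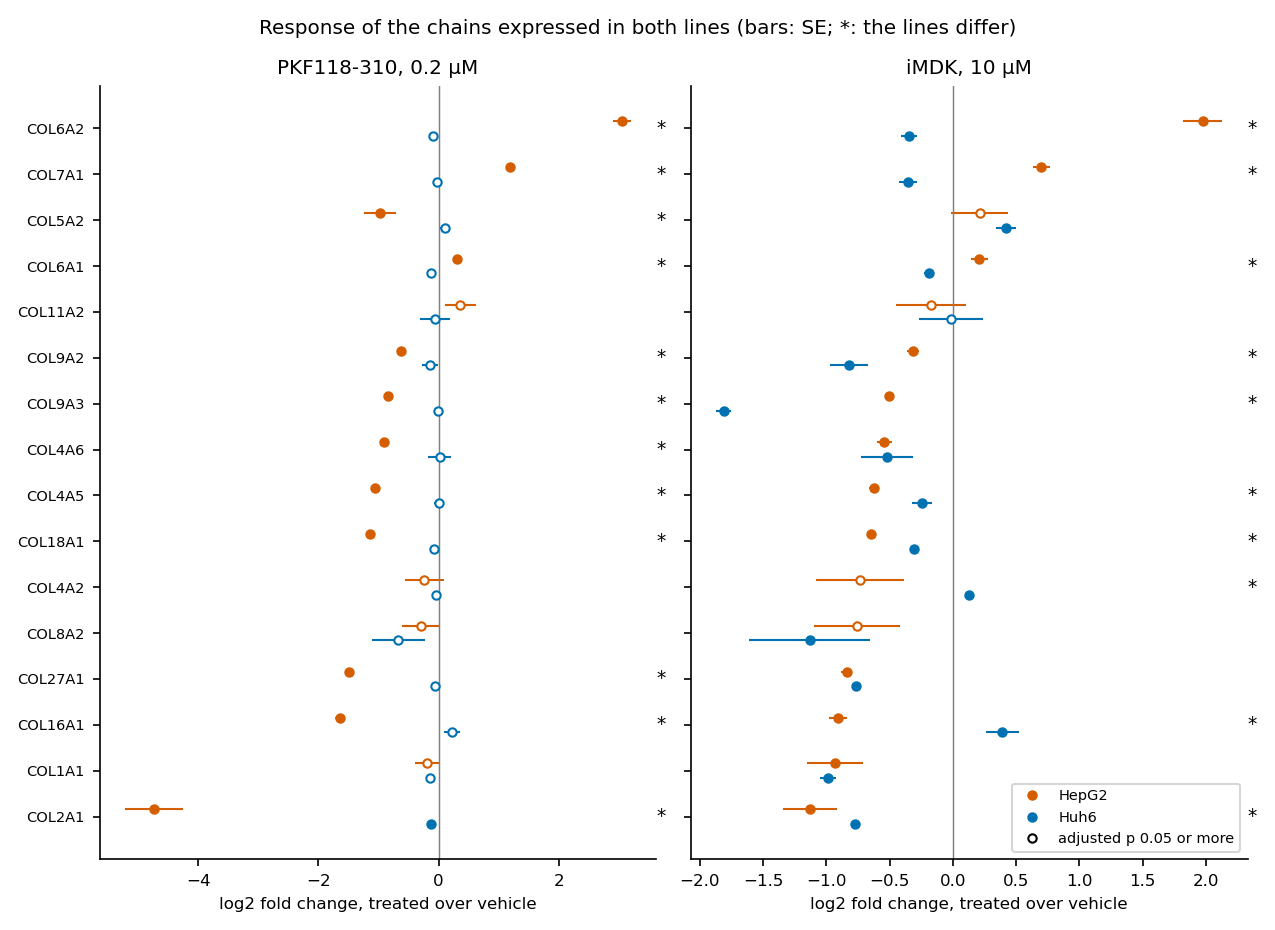
Log2 fold change of treated over vehicle with its SE for the 16 chains expressed in both tumour lines, for 0.2 µM PKF118-310 and 10 µM iMDK. Filled points passed the test within the line and asterisks mark a called difference between the lines. With PKF118-310 most Huh6 points lie near 0, COL8A2 being at -0.67, while HepG2 points spread from -4.74 (COL2A1) to 3.05 (COL6A2).

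THP-1 macrophages sorted after co-culture with HepG2 had 7 of 29 chains higher and 0 lower than THP-1 macrophages grown alone, where 21.6% of all genes tested were called, 12% higher and 9.68% lower (edgeR's quasi-likelihood test; unadjusted, 7 higher and 1 lower). Of the 7, COL4A5, COL4A6 and COL16A1 had monoculture means of 0.0202, 0.0810 and 0.0407 CPM. They passed the filter on low counts only through co-culture libraries, so their calls are given without weight. The 20 tumour markers summed to 3154 to 3732 CPM after HepG2 co-culture and to 129 to 323 CPM after Huh6 co-culture, against 56.8 to 71.7 CPM alone. From tumour markers at 100 CPM or more in the matching tumour group, tumour reads were estimated as 9.39 to 10.5% of counts after HepG2 co-culture, 5.08 to 6.63% with HepG2 given 5 µM iMDK and 1.88 to 4.58% with HepG2 given 10 µM. After Huh6 co-culture the estimate was 0.254 to 1.68%, and with Huh6 given iMDK 0.0996 to 0.277%. For each chain, the tumour CPM expected from this share was set beside the gain over monoculture.

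COL9A2, the third most abundant chain per kilobase in these macrophages, had 594, 569 and 486 CPM after HepG2 co-culture and 351, 343 and 350 CPM alone. The groups did not overlap, and the change was 0.66 ± 0.10 (log2, SE; edgeR adjusted p = 4e-05). In CPM without TMM scaling the gain was 205, against 9.09 expected from tumour reads. Once the expected tumour reads were subtracted from the counts before the fit, the change was 0.84 ± 0.10 (edgeR adjusted p = 4.9e-06). Subtraction also lowered the totals of these libraries, and the change of COL1A1, with few tumour reads expected, grew as well, as given below. With HepG2 given iMDK, COL9A2 had 543, 475 and 403 CPM at 5 µM and 502, 470 and 390 CPM at 10 µM, and neither group differed from the untreated co-culture by the test. After that subtraction it was lower with HepG2 given 10 µM iMDK than with untreated HepG2 (-0.39, edgeR adjusted p = 0.021). After Huh6 co-culture it had 401, 394 and 362 CPM, a change from monoculture that did not pass the test.

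HepG2 itself expressed all 7 chains that were higher after its co-culture, COL9A2 at a mean of 96.6 CPM with vehicle, and also COL6A1 and COL7A1, which were not called. COL18A1 had 42.3, 41.2 and 47.0 CPM after co-culture and 15.9, 18.6 and 18.5 CPM alone (1.30 ± 0.16), with a gain of 25.9 against 40.6 expected from tumour reads. COL9A3 had 26.1, 29.5 and 28.5 CPM after co-culture and 3.06, 3.77 and 2.13 CPM alone (3.23 ± 0.27), a gain of 25.1 against 39.5 expected. COL27A1 had 72.3, 61.0 and 54.7 CPM after co-culture and 53.0, 44.5 and 48.5 CPM alone (0.37 ± 0.12, edgeR adjusted p = 0.037), a gain of 14.3 against 54.7 expected. In these 3 chains the groups did not overlap, by a narrow margin for COL27A1, whose call was lost without replicate 1 or 2 of the co-culture or replicate 2 or 3 alone (0.26 to 0.39, adjusted p of 0.070 to 0.20, edgeR). COL4A5 had 158 counts after co-culture and 1 alone, a ratio of 164 (95% counting interval 29 to 6522, exact binomial), with a gain of 3.33 against 12.1 expected. COL16A1 had 308 counts against 2, a ratio of 160 (43.9 to 1327), with a gain of 6.46 against 5.51 expected. COL4A6 was at 1.36, 0.953 and 1.56 CPM after co-culture, against 0, 0 and 4 counts alone (3.86 ± 1.07). After the subtraction 24 chains passed the filter on low counts, COL4A5 and COL4A6 not among them, and 4 were higher and 3 lower after HepG2 co-culture. The 3 were COL18A1, COL27A1 and COL9A3, by -2.11, -2.30 and -8.46, so their direction rests on the tumour estimate. The subtraction left COL9A3 at 0 counts in the HepG2 co-culture group, so its fitted values bound nothing. COL9A2, COL8A2 (0.58, edgeR adjusted p = 0.044), COL6A2 (0.44, adjusted p = 0.042) and COL16A1 (5.01 ± 1.66) were higher. What was left of COL16A1 was 1.53 ± 1.81 CPM after HepG2 co-culture and 0.0410 ± 0.0356 CPM alone (SD, n = 3 each), smaller than its spread.

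After Huh6 co-culture 4 of 29 chains were higher than in monoculture and 0 lower, with 1.83% of all genes called, 1.32% higher and 0.503% lower (unadjusted, 6 higher and 1 lower). They were chains that Huh6 expresses. With the expected tumour reads subtracted 0 of the 24 chains tested were called, but of these 4 COL4A2 alone was still tested. COL1A2, COL2A1 and COL4A1 had monoculture means of 0.0202, 0.0601 and 0.266 CPM. They passed the filter on low counts only through co-culture libraries, so their calls are given without weight. COL2A1 had 28.8, 8.03 and 3.79 CPM after Huh6 co-culture and 0, 2 and 1 counts alone, a ratio of summed counts of 233 (95% counting interval 79.5 to 1135, exact binomial). The 3 co-culture libraries followed the order of their tumour shares of 1.68, 0.563 and 0.254%, a link that was not tested. The gain of COL2A1 was 13.6 against 71.5 expected. COL4A1 had 7.60, 3.68 and 1.86 CPM after co-culture and 0.437, 0.120 and 0.243 CPM alone (4.01 ± 0.53), a gain of 4.13 against 5.76 expected. COL4A2 had 8.53, 4.64 and 4.82 CPM after co-culture and 0.873, 1.26 and 1.70 CPM alone (2.23 ± 0.33), a gain of 4.71 against 5.10 expected. COL1A2, the remaining chain, had 75 counts after co-culture and 1 alone, a ratio of 83.3 (14.5 to 3335).

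Set against each other, the HepG2 co-culture libraries had 7 chains higher and 4 lower than the Huh6 co-culture libraries, with 16.7% of all genes called (9.13% higher, 7.55% lower). COL16A1 (5.75 ± 0.72), COL4A5 (3.85 ± 0.60), COL9A3 (2.99 ± 0.27), COL18A1 (0.69 ± 0.16), COL27A1 (0.59 ± 0.12) and COL9A2 (0.51 ± 0.10) were higher after HepG2 co-culture. COL2A1 (-6.91 ± 1.31), COL4A1 (-3.43 ± 0.48) and COL4A2 (-1.77 ± 0.32) were lower (log2, SE). Each of COL2A1, COL4A1, COL4A5 and COL16A1 passed the filter on low counts only through libraries of the partner where it was higher. Their calls are given without weight. After subtraction of the expected tumour reads 2 chains were higher and 3 lower of the 24 tested, 6 of the 11 being among those, and COL18A1 (-2.30), COL27A1 (-2.03) and COL9A3 (-8.49) changed sign.

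When the HepG2 cells had been given 10 µM iMDK, 0 chains were higher and 5 lower in the sorted macrophages than with untreated HepG2, with 3.34% of all genes called (0.645% higher, 2.7% lower). The 5 were COL4A5 (-2.24 ± 0.46), COL16A1 (-1.58 ± 0.34), COL9A3 (-1.12 ± 0.24), COL18A1 (-0.82 ± 0.16) and COL27A1 (-0.45 ± 0.12, edgeR adjusted p = 0.049), and the tumour share was lower in the same libraries. Subtracted for tumour reads, COL4A5 was no longer tested, COL9A3 (8.41, adjusted p = 0.0013) and COL18A1 (1.97, adjusted p = 0.017) were higher in edgeR's test, and COL27A1 (1.89) and COL16A1 (-0.44) did not pass. COL9A3 had 15.1, 6.5 and 17.2 CPM with HepG2 given 10 µM iMDK and 26.1, 29.5 and 28.5 CPM with untreated HepG2. COL27A1 lost its call without any one of 5 of the 6 libraries (-0.50 to -0.34, all but replicate 3 of the untreated co-culture), COL16A1 without replicate 1 of the untreated co-culture (-1.37) or replicate 2 at 10 µM (-1.31), and COL9A3 without replicate 2 of the untreated co-culture (-1.08). The lowest COL9A3 library was the one with the lowest tumour share, 1.88%, a link that was not tested. With 5 µM, 0 chains passed edgeR's test (0.0903% of genes called, 0.0194% higher and 0.071% lower; unadjusted 1 higher and 7 lower), and DESeq2 called 1. In a fit with the replicate number as a block, 4 chains were lower: COL18A1 (-0.76, edgeR adjusted p = 0.00084), COL6A3 (-0.52, 0.0038), COL1A1 (-0.46, 0.00072) and COL27A1 (-0.29, 0.040). The tumour share was lower in these libraries too. Subtracted for tumour reads and without the block, COL18A1 (1.12) and COL27A1 (1.61) had the opposite sign. COL6A3 (-0.55) and COL1A1 (-0.54) kept theirs, and none of these passed.

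When Huh6 cells had been given iMDK, 1 chain passed at 10 µM, COL4A1, with 0.975, 1.23 and 0.751 CPM against 7.60, 3.68 and 1.86 CPM with untreated Huh6 (-2.15 ± 0.40, edgeR adjusted p = 0.043). Here 0.0581% of all genes were called (0.00645% higher, 0.0516% lower), and the call was lost without replicate 1 or 2 of the untreated co-culture and without each of the treated libraries (-2.33 to -1.48). COL4A1 was no longer tested after the subtraction. At 5 µM, 0 chains passed edgeR's test (0.0129% of genes called, 0.00645% in each direction; unadjusted 0 higher and 7 lower, and DESeq2 called 0).

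COL6A1 and COL6A2, the leading chains of the macrophages, did not differ between co-culture and monoculture by the test on the counts as deposited. COL6A1 had 726, 809 and 957 CPM after HepG2 co-culture, 699, 818 and 903 CPM after Huh6 co-culture and 787, 776 and 819 CPM alone, so the groups overlapped. COL6A2 had 604, 755 and 817 CPM, 525, 696 and 738 CPM and 566, 634 and 649 CPM in the same groups. The subtraction, as given above, made COL6A2 a call, higher after HepG2 co-culture. COL6A3 and COL1A1 differed strongly between replicate numbers. COL6A3 had 244, 146 and 145 CPM after HepG2 co-culture and 244, 112 and 116 CPM alone, and COL1A1 had 78.7, 45.0 and 46.4 CPM after HepG2 co-culture and 51.7, 28.7 and 28.5 CPM alone. Within each number COL1A1 was higher after HepG2 co-culture, with a mean gain of 20.8 CPM against 0.309 expected from tumour reads. The difference did not pass the test over the groups (0.65 ± 0.31, edgeR adjusted p = 0.15). That test did not pair the numbers, so its error holds the spread between them. After the subtraction the change of COL1A1 was 0.84 ± 0.32 (edgeR adjusted p = 0.067), although few of its reads were removed. In all 7 THP-1 groups replicate 1 was the highest of the 3 libraries for both genes and the lowest for COL6A2.

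**Figure D5:**
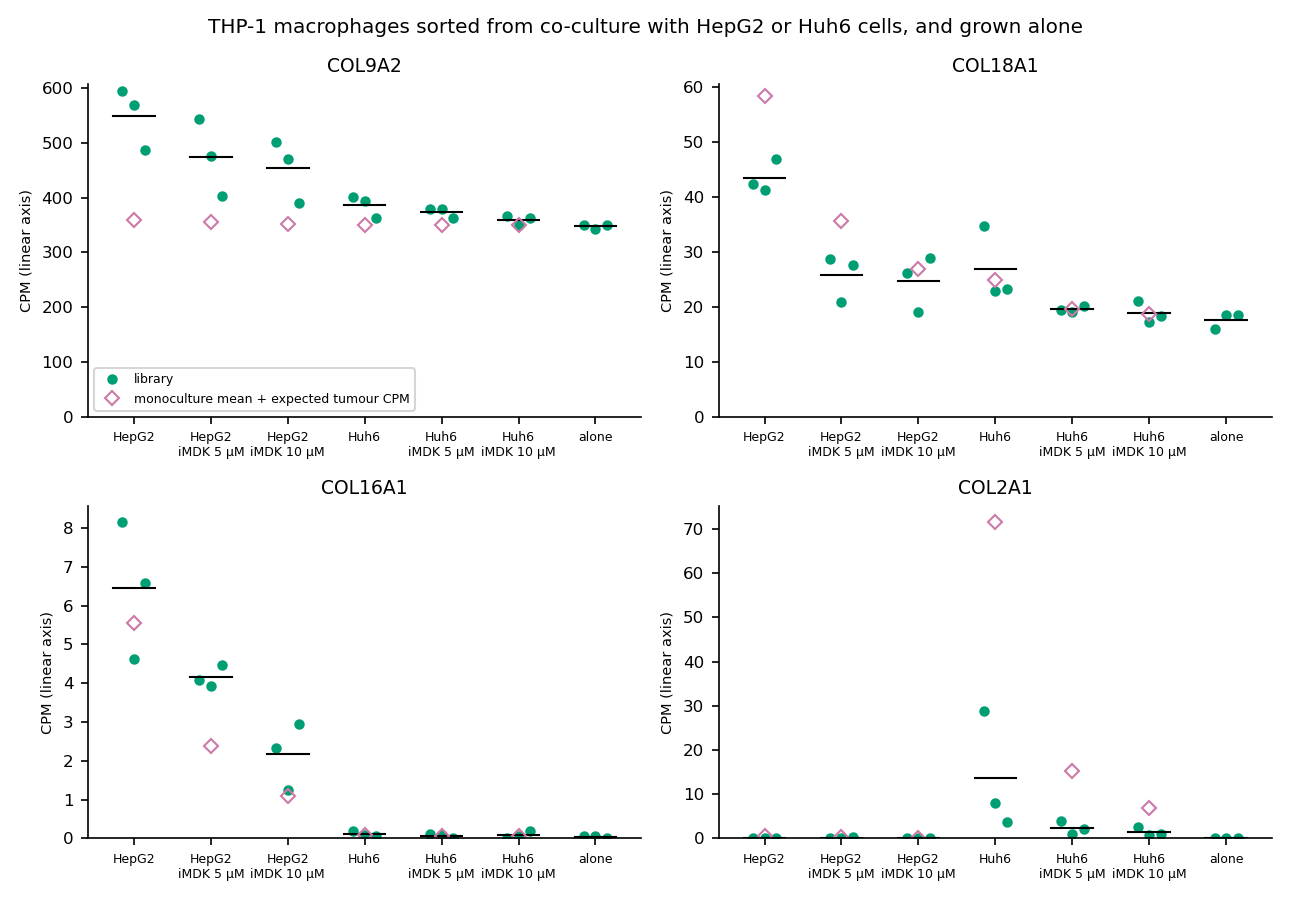
CPM of COL9A2, COL18A1, COL16A1 and COL2A1 in each sorted THP-1 library (points) with the group mean (line), by co-culture partner and its iMDK dose, with monoculture (alone) on the right; linear axes from 0. Diamonds give the monoculture mean plus the CPM expected from tumour reads. COL9A2 after HepG2 co-culture lies at 486 to 594 CPM, above its diamond. COL18A1 after co-culture with untreated HepG2 and COL2A1 after co-culture with untreated Huh6 lie below theirs.

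Genes that act on collagen were read from lists of enzymes, receptors and partners. For reading their counts, the shares of all genes tested that were called higher and lower were 34.3% and 33.4% in HepG2 with 0.2 µM PKF118-310, 27.3% and 27.2% with 10 µM iMDK, 28.9% and 27.9% in Huh6 with 0.4 µM PKF118-310 and 26% and 26.1% with 10 µM iMDK. Of the 16 folding and modifying genes tested in HepG2 (prolyl and lysyl hydroxylases, collagen chaperones), 1 rose and 14 fell with 0.2 µM PKF118-310, with a list median of -0.69, and 2 rose and 9 fell with 10 µM iMDK. P3H1 (-1.22 ± 0.04), CRTAP (-1.04 ± 0.04) and P4HA1 (-1.02 ± 0.04), which hydroxylate prolines or belong to the complex that does, fell with PKF118-310. P3H2, the 1 that rose (3.80 ± 1.22), did so from a mean of 0.218 CPM, near the detection limit, so its call is given without weight. In Huh6, 3 of 16 rose and 9 fell with 0.4 µM PKF118-310, and 6 rose and 10 fell with 10 µM iMDK, led by COLGALT2 (1.32 ± 0.31), P3H2 (-0.89 ± 0.03) and P4HA2 (0.56 ± 0.03). Of 7 secretion genes, 2 rose and 4 fell with PKF118-310 and 4 rose and 2 fell with iMDK in HepG2, against 1 and 2, and 1 and 4, in Huh6.

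Among processing and cross-linking genes, 3 of 12 rose and 5 fell in HepG2 with PKF118-310, and 3 rose and 4 fell with 10 µM iMDK. PCOLCE, an enhancer of procollagen cleavage, fell by 3.15 ± 0.15 and 1.17 ± 0.10 and LOX, the lysyl oxidase that cross-links fibres, by 3.10 ± 0.16 and 1.28 ± 0.12, while LOXL2 rose by 2.25 ± 0.18 and 0.52 ± 0.20. In Huh6, 3 of 13 rose and 6 fell with 0.4 µM PKF118-310, and 2 rose and 6 fell with 10 µM iMDK. There PCOLCE fell by 1.27 ± 0.04 and LOX by 0.69 ± 0.27 with iMDK, and LOXL2 rose by 0.95 ± 0.26. The collagen receptor ITGA2 rose in each of the 4 comparisons, by 2.06 ± 0.04 and 0.98 ± 0.04 in HepG2 and by 1.29 ± 0.07 and 1.59 ± 0.07 in Huh6 (PKF118-310 first). OSCAR, a receptor of bone and myeloid cells that binds collagen, rose by 4.15 ± 0.13 and 3.08 ± 0.13 in HepG2. Of 8 receptors tested in HepG2, 5 rose and 1 fell with PKF118-310 and 4 rose and 1 fell with iMDK, and of 7 in Huh6, 1 rose and 2 fell, and 1 rose and 3 fell.

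Of the basement membrane partners of type IV collagen, 4 of 11 rose and 6 fell in HepG2 with PKF118-310 and 2 rose and 6 fell with 10 µM iMDK. NID1, which bridges laminin and type IV collagen, fell by 2.20 ± 0.04 and 1.13 ± 0.04, and LAMB3, a chain of the laminin of epithelial attachment, rose by 5.73 ± 0.33 and 2.20 ± 0.36. In Huh6, 7 of 12 rose and 3 fell with 0.4 µM PKF118-310, and 3 rose and 5 fell with 10 µM iMDK. HSPG2, the proteoglycan perlecan, rose there by 0.75 ± 0.08 and 0.46 ± 0.08. All changes of these lists that are named here passed edgeR's test, with adjusted p of 0.030 or less.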

How the data were processed

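The deposited tables hold raw gene counts, 1 for the 2 tumour lines and 1 for THP-1. The submitters' processing notes name, for the authors' work, the genome build GRCh38 and the tools SAMtools 1.16.1, STAR 2.7.3a, edgeR 3.36 and featureCounts, the last without a version. Which annotation release the counting took, and whether it used strand, is not given in the sources used here. Libraries held 12623973 to 20043105 counts, and 0 per-sample columns were left unused.

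Genes were filtered with filterByExpr, scaled with TMM and fitted with edgeR 4.0.16 (R 4.3.3, limma 3.58.1), 1 fit for each line with 1 mean for each group and 1 joint fit of the 31 tumour libraries for the differences between lines. The quasi-likelihood F test was two-sided, with Benjamini-Hochberg adjustment over all genes tested and a threshold of 0.05. Standard errors of log2 fold changes came from the fitted weights and the quasi-dispersion, and were not taken below the Poisson error. Nothing in the labels says that the libraries of a group came from separate cultures, so p-values measure only the spread between these libraries, which may be technical. The fit was tested on simulated counts: of 100 genes changed 2-fold, it called 99 for Huh6 0.4 µM PKF118-310 against vehicle (14731 genes), 97 for HepG2 10 µM iMDK against vehicle (14589 genes) and 89 for THP-1 after HepG2 co-culture against monoculture (15143 genes). The simulation gave all genes 1 common dispersion and changed few of them, each with a mean of 1 CPM or more. It does not measure the power for lower chains or where many genes change.

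Named for each comparison were up to 8 chains past the threshold with the largest change and a mean of 0.5 CPM or more in that fit, up to 4 for differences between lines, up to 4 per related list, and the type I, COL4A1, COL4A2, COL4A5, COL4A6 and COL18A1 chains at any value. COL6A1, COL7A1, COL6A3, COL9A2, COL9A3 and low chains given outside this rule were chosen after their values were seen. The members, the lists (folding, secretion, processing and cross-linking, receptors, basement membrane partners) and the tumour, macrophage, fibroblast and stellate, and endothelial markers were chosen with earlier results of these data known.

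The tumour share of a sorted library was the median, over tumour markers at 100 CPM or more in the matching tumour group, of its excess CPM over the monoculture mean divided by the tumour CPM. Library intervals are exact and cover counting error only, at 95%, and a group at 0 was set to a floor of 3 counts. Gene positions came from GENCODE 29 (GRCh38) for all 44 members and promoter windows from RefSeq (GRCh38.p14) for 32. Whether equal replicate numbers pair libraries was checked by the correlation of their deviations from the group means. It was above 0.1 for every number only between the THP-1 groups with HepG2 given 5 µM iMDK and with untreated HepG2 (0.386, 0.143 and 0.381), and the blocked fit is given there. Alternatives were RLE scaling, no filter on low counts, DESeq2 1.42.0, the block, leaving out each library, subtracting expected tumour reads and, for the single library, RLE and leaving out vehicle libraries, both chosen after seeing the data.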

Additional observations from a re-analysis of the deposited data

Results flagged for a closer look

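In the results here the responses of the 2 tumour lines to the same dose differed by an interaction test in the joint edgeR fit. They are the chains with the largest such differences at each dose, up to 4, and the chains called in opposite directions in the lines. Each value is the HepG2 response minus the Huh6 response, on the log2 scale.

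With 0.2 µM PKF118-310 the difference was 3.14 for COL6A2, 1.61 for COL26A1, 5.62 for COL20A1, -1.87 for COL16A1 and -4.61 for COL2A1. COL2A1 fell in both lines, to 8, 1 and 3 counts in HepG2 and by a log2 change of -0.14 in Huh6.

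With 5 µM iMDK it was 1.81 for COL6A2, 0.87 for COL7A1, 2.08 for COL26A1, 2.11 for COL14A1, 4.11 for COL28A1, 5.05 for COL20A1 and -1.24 for COL16A1. With 10 µM iMDK it was 2.34 for COL6A2, 1.08 for COL7A1, 0.42 for COL6A1, 2.33 for COL4A1, 3.30 for COL23A1, 2.89 for COL26A1, 4.32 for COL20A1 and -1.28 for COL16A1.

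Several of these rest on few HepG2 counts. COL20A1 had 6, 3 and 8 counts in HepG2 at 0.2 µM PKF118-310, 3, 5 and 4 at 5 µM iMDK and 0, 4 and 8 at 10 µM iMDK, against 0, 0 and 0 with vehicle. COL28A1 had 2, 3 and 0 counts at 5 µM iMDK against 0, 0 and 0 with vehicle, and COL14A1 1, 5 and 5 against 2, 0 and 1. COL4A1 had 16, 10 and 6 counts in HepG2 at 10 µM iMDK against 1, 3 and 2 with vehicle, COL23A1 7, 5 and 9 against 3, 1 and 1, and COL26A1 14, 15 and 10 against 3, 4 and 1. The fitted values of COL20A1 and COL28A1 depend on the prior count and bound nothing. The interaction of COL14A1 was lost with DESeq2 (adjusted p = 0.057) and without the filter on low counts (adjusted p = 0.091, edgeR), and that of COL28A1 without that filter (adjusted p = 0.070, edgeR). Leaving out 1 library ended the call of COL14A1 for 7 libraries (HepG2 replicates 2 and 3 at 5 µM iMDK and with vehicle, Huh6 replicate 2 at 5 µM iMDK and replicates 1 and 2 with vehicle, 1.56 to 2.14), that of COL28A1 for 7 (HepG2 replicates 1 and 2 at 5 µM iMDK and each with vehicle, Huh6 replicate 1 at 5 µM iMDK and replicate 3 with vehicle, 3.43 to 4.11), that of COL20A1 at 10 µM iMDK for each HepG2 vehicle library or HepG2 replicate 3 at 10 µM (3.35 to 4.32) and that of COL26A1 at 5 µM iMDK for HepG2 replicate 3 at 5 µM (1.54).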

How the results depend on the processing

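Of the values of named chains, RLE scaling kept 142 of 142 on their side of the threshold, the replicate block 141 of 142, no filter on low counts 138 of 142 and DESeq2 137 of 141, and leaving out 1 library 855 of 924, with no reversal in any of these. With expected tumour reads subtracted, 10 of 15 THP-1 values reversed. For COL18A1, COL27A1 and COL9A3 the tumour CPM expected after HepG2 co-culture exceeded the gain over monoculture. COL9A3 was left at 0 counts after co-culture with untreated HepG2. Reversed after HepG2 co-culture against monoculture were COL18A1 (-2.11), COL27A1 (-2.30) and COL9A3 (-8.46). After HepG2 against Huh6 co-culture they were COL18A1 (-2.30), COL27A1 (-2.03), COL9A3 (-8.49) and COL4A2 (0.38). For HepG2 given 10 µM iMDK against untreated HepG2 they were COL18A1 (1.97), COL27A1 (1.89) and COL9A3 (8.41). The number of chains called then was 5 in place of 11 for HepG2 against Huh6 co-culture, 3 in place of 5 for HepG2 given 10 µM iMDK, 0 in place of 4 for Huh6 co-culture against monoculture and 0 in place of 1 for Huh6 given 10 µM iMDK. Subtraction left 24 chains tested, among them 6 of those 11, 4 of 5, 1 of 4 and 0 of 1, and for HepG2 co-culture against monoculture 5 of 7, where 4 chains were called higher and 3 lower. With the replicate block, 8 chains were called for HepG2 given 10 µM iMDK, 4 in place of 0 for HepG2 given 5 µM, 3 in place of 1 for Huh6 given 10 µM and 1 in place of 0 for Huh6 given 5 µM. Of these, only HepG2 given 5 µM had a correlation above 0.1 for every equal replicate number, and no other comparison moved by over 1.5 times with the block. Without the filter 4 chains were called for HepG2 given 5 µM, 5 for Huh6 given 10 µM and 2 for Huh6 given 5 µM, and with DESeq2 1 for HepG2 given 5 µM and 2 for Huh6 given 10 µM. Leaving out 1 library gave 1 to 3 chains for 0.2 µM PKF118-310 in Huh6 (1 without replicate 1 at that dose), 3 to 6 for HepG2 given 10 µM iMDK, 0 to 2 for Huh6 given 10 µM and 0 to 2 for Huh6 given 5 µM. The mean tumour share with Huh6 given 5 µM iMDK was 0.140% from markers under 0.5 CPM in monoculture. The cause of these shifts, apart from the subtraction, was not tested. Depth limits chains under about 0.2 CPM, where a library holds 3 counts or fewer.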
